A study of Mus musculus with 2 samples.

Results

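The genes described here are 41 mouse genes of mitosis and the spindle checkpoint. They include mitotic kinases, cyclins and phosphatases, checkpoint and centromere proteins, proteins acting with the anaphase promoting complex, spindle motor proteins and condensin subunits. They were chosen by name, but with earlier results of these data known, so the list as a whole was not tested. A probe was found for 34 of the 41 through its accession, the symbol in its description (25 genes together) or a description in words (9 genes), among 20868 probes for genes on the array. No probe was matched to Bub1, Aurkb, Cenpe, Espl1, Kif11, Kif22 or Ncapd2, which were not analysed here. Ccna2, Cenpf and Kif20a had a spot on array 2 that the scanner software had marked as an outlier. That left 31 tested genes, all of them well above background in all 4 channels and none saturated, among 18017 tested genes in all. The tested probe was identified by a description in words alone for 10 of the 31: Aurka, Cdc20, Pttg1, Tpx2, Ube2c, Kif23, Mki67, Ncaph, Prc1 and Smc4.

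The study followed mouse mucosal mast cell cultures, grown with IL-3, IL-9, SCF and TGF-beta1, and compared RNA taken at day 20 with RNA taken at day 4. Two-colour arrays carry both RNAs on 1 slide: on array 1 day 20 was labelled with Cy5 and day 4 with Cy3, and array 2 had them the other way round. RNA of 3 samples was pooled for each labelling, with separate pools for either array, so array, dye orientation and pool cannot be told apart. All ratios below are day 20 over day 4 on the log2 scale, means carry the SD over 2 arrays, and p-values are limma's, adjusted by the Benjamini-Hochberg method over all 18017 genes. With 2 arrays and 1 residual degree of freedom per gene these p-values are approximate.

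Mitosis begins when cyclin B and its kinase Cdk1 become active, helped by the Cdc25 phosphatases and by the Polo and Aurora kinases. The spindle checkpoint then holds back the anaphase promoting complex and its activator Cdc20 until all kinetochores are attached, after which securin and cyclin B are destroyed and the chromosomes separate. Transcripts of many of these proteins build up in the later part of the cell cycle, and many of their promoters carry CCAAT boxes, bound by NF-Y, and a CHR element, bound by the DREAM and MuvB complexes. Mast cell precursors divide in culture with IL-3 and SCF while they build up their granule proteins.

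Promoter sequence is shown for 4 genes whose RNA was lower at day 20 on both arrays, and for Mki67, which was not. The sequences run 5′ to 3′ on the gene's strand, from 200 bases before the transcription start to 30 bases after it, and come from RefSeq on GRCm38.p6. Capitals mark TTTGAA, the core of the CHR element, and CCAAT, each on either strand, so that TTCAAA and ATTGG are in capitals as well. In Ube2c a CCAAT and an ATTGG run into each other.
Cdc20, chr4:118437314-118437543, minus strand: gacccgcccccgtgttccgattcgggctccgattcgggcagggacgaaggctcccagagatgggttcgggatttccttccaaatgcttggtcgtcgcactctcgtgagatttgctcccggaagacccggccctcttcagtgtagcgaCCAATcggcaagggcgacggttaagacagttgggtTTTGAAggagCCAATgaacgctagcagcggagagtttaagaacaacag
Ube2c, chr2:164769729-164769958, plus strand: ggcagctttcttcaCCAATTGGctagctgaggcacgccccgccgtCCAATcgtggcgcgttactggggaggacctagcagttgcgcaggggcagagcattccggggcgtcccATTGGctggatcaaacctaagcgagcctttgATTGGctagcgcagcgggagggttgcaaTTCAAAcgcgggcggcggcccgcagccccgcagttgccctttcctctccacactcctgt
Cenpa, chr5:30666686-30666915, plus strand: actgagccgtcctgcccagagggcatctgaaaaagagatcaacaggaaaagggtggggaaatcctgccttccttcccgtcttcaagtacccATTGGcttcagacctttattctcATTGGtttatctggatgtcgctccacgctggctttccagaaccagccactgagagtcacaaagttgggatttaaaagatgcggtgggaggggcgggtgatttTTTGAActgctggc
Ccnb2, chr9:70421525-70421754, minus strand: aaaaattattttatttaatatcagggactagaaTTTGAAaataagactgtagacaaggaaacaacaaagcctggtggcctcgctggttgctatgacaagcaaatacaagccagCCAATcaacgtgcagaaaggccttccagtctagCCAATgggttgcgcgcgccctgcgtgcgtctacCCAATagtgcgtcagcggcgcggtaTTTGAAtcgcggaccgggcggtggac
Mki67, chr7:135716350-135716579, minus strand: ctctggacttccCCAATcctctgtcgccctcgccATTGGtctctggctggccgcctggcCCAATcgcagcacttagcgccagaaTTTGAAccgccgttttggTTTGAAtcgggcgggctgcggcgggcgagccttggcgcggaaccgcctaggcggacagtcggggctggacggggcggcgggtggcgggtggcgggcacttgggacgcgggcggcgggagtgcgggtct

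Both motifs were common in the promoters of these genes, among those called lower and among those not called. Over 300 bases, from 250 before the start to 50 after it, TTTGAA stood in 22 of the 33 listed genes with a promoter in the table (66.7%) and CCAAT in 27 (81.8%). Both stood in 21 of the 33 (63.6%). Among all 27025 promoters of that length the shares were 18.1%, 37.8% and 7.0%. Of the 11 genes called lower that have a promoter entry, 7 held TTTGAA, 9 held CCAAT and 7 held both. Of the 15 tested genes that were not called and have a promoter entry, 10 held TTTGAA, 11 held CCAAT and 9 held both. A match of letters is a description of these windows and not a binding site.

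The mitosis genes that passed the test were all lower at day 20, led by Cdc20, Cenpa, Ube2c and Aurka. Of the 31 tested genes, 13 passed an adjusted p of 0.05 with a lower level at day 20 (41.9%), against 9.27% of all tested genes, and 0 passed with a higher level, against 7.83% of all. By limma's unadjusted p at the same threshold 15 were lower, against 13.1% of all genes, and 0 higher, against 11.5% of all. Of the 21 genes whose tested probe was named by accession or symbol 8 were lower (38.1%), and of the 10 matched in words 5 were. The median log2 ratio was -0.47 on array 1 and -0.11 on array 2, where the medians of all genes were 0.00 and -0.01. The ratio was below 0 on both arrays for 17 of the 31 genes, against 30.4% of all genes. It was above 0 on both for 4 and of opposite sign for 10, where 5216 and 7327 of all 18017 genes were. Only Cdc20 was at least 2-fold lower on both arrays, as 0.821% of all genes were. A pool with fewer dividing cells and a pool whose cells each hold less of a transcript cannot be told apart in RNA of whole cultures.

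**Figure D1:**
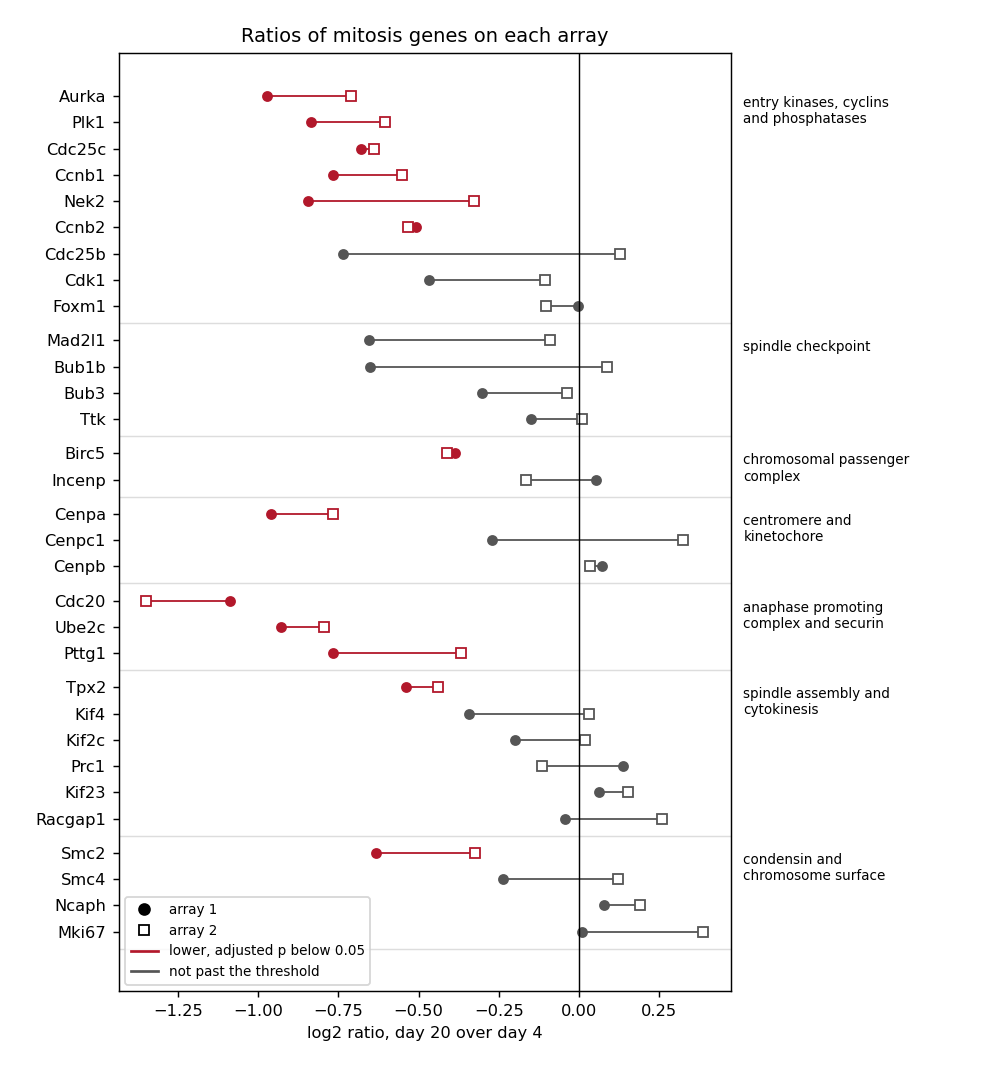
Log2 ratio of day 20 over day 4 (horizontal axis) of each of the 31 tested mitosis genes on array 1 (filled circles) and array 2 (open squares), grouped by role, with red for genes whose adjusted p is below 0.05. All 13 red genes lie left of 0 on both arrays, and 10 of the 18 others have their symbols on opposite sides of 0.

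Cdc20, which activates the anaphase promoting complex, had the lowest ratio of the 31 genes. Its normalised intensity was 1035 and 1229 at day 20 on arrays 1 and 2, against 2198 and 3127 at day 4. The groups were well apart, with log2 ratios of -1.09 and -1.35, a mean of -1.22 ± 0.18, a level 2.32-fold lower at day 20 and an adjusted p of 8.68e-06. Intensities include the offset of 50 added before normalisation, which pulls the ratios of dim probes toward 0, and intensities of different probes are not comparable with each other. Cenpb, Kif2c, Ncaph and Foxm1 were dim, with intensities from 80 to 117, so their small ratios are uncertain. For Ncaph the mean ratio was 0.13 with the offset of 50 and 0.32 with an offset of 0.

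The other 2 tested genes of the anaphase promoting pathway were lower as well. Thus 3 of 3 passed the test, where 9.27% of all tested genes were lower. Ube2c, the ubiquitin-conjugating enzyme that works with the complex, had 370 and 539 at day 20, against 704 and 935 at day 4. Its day 20 values lay below both day 4 values, with a mean log2 ratio of -0.86 ± 0.09 (adjusted p = 1.02e-04). That probe was identified by a description in words. The probe whose description carries the symbol Ube2c was dimmer, gave ratios of -0.20 and -0.04 and was not well above background on array 2. Pttg1, the securin that holds separase inactive, had 224 and 377 at day 20, against 382 and 486 at day 4. Here the higher day 20 value came close to the lower day 4 value, and the mean was -0.57 ± 0.28 (adjusted p = 0.00539).

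Genes that drive entry into mitosis were the other role group in which most members were lower. Of these, 6 of 9 passed the test, where 9.27% of all tested genes were lower, with medians of -0.74 on array 1 and -0.53 on array 2. The role groups are small, and differences between them were not tested. A count of 0 or 1 in such a group cannot be told apart from the share of all genes. Aurka, the kinase of centrosomes and spindle poles, had 728 and 945 at day 20, against 1430 and 1545 at day 4 (mean log2 ratio -0.84 ± 0.19, adjusted p = 1.73e-04). Plk1, the Polo kinase that acts from entry to cytokinesis, had 603 and 862 at day 20, against 1077 and 1311 at day 4 (-0.72 ± 0.16, adjusted p = 5.52e-04). For both kinases each day 20 value lay below each day 4 value. Nek2, a kinase that separates centrosomes, had 251 and 376 at day 20, against 451 and 471 at day 4. Its arrays differed in size, with ratios of -0.85 and -0.33 (mean -0.59 ± 0.37, adjusted p = 0.00667).

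The 2 B-type cyclins, which activate Cdk1, were both lower. The probe for Ccnb1 had 191 and 197 at day 20, against 325 and 290 at day 4 (-0.66 ± 0.15, adjusted p = 0.00104). This probe is described as a sequence related to cyclin B1, under a name that the RefSeq table gives as a synonym of Ccnb1, so the gene and such a copy cannot be told apart. Ccnb2 had 1562 and 2209 at day 20, against 2223 and 3195 at day 4. Its highest day 20 value nearly met its lowest day 4 value across arrays, while the ratios within arrays were -0.51 and -0.53 (mean -0.52 ± 0.02, adjusted p = 0.00443). Ccna2, cyclin A2, was not tested because of its marked spot. With that spot kept its ratios were -0.22 and -0.65 (adjusted p = 0.0322).

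Of the Cdc25 phosphatases, which remove inhibitory phosphates from Cdk1, Cdc25b and Cdc25c were both lower on array 1 and differed on array 2. The difference between them was not tested. Cdc25c had 178 and 222 at day 20, against 285 and 345 at day 4, with ratios of -0.68 and -0.64 (mean -0.66 ± 0.03, adjusted p = 7.81e-04). Cdc25b had ratios of -0.74 on array 1 and 0.13 on array 2 and did not pass the test. Cdc25a, measured through a separate list of other mitosis genes, had -0.26 on both arrays and did not pass it either. Cdk1 itself had ratios of -0.47 and -0.11, and Foxm1, a transcription factor of mitotic genes, had 0.00 and -0.10. Neither passed the test.

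**Figure D2:**
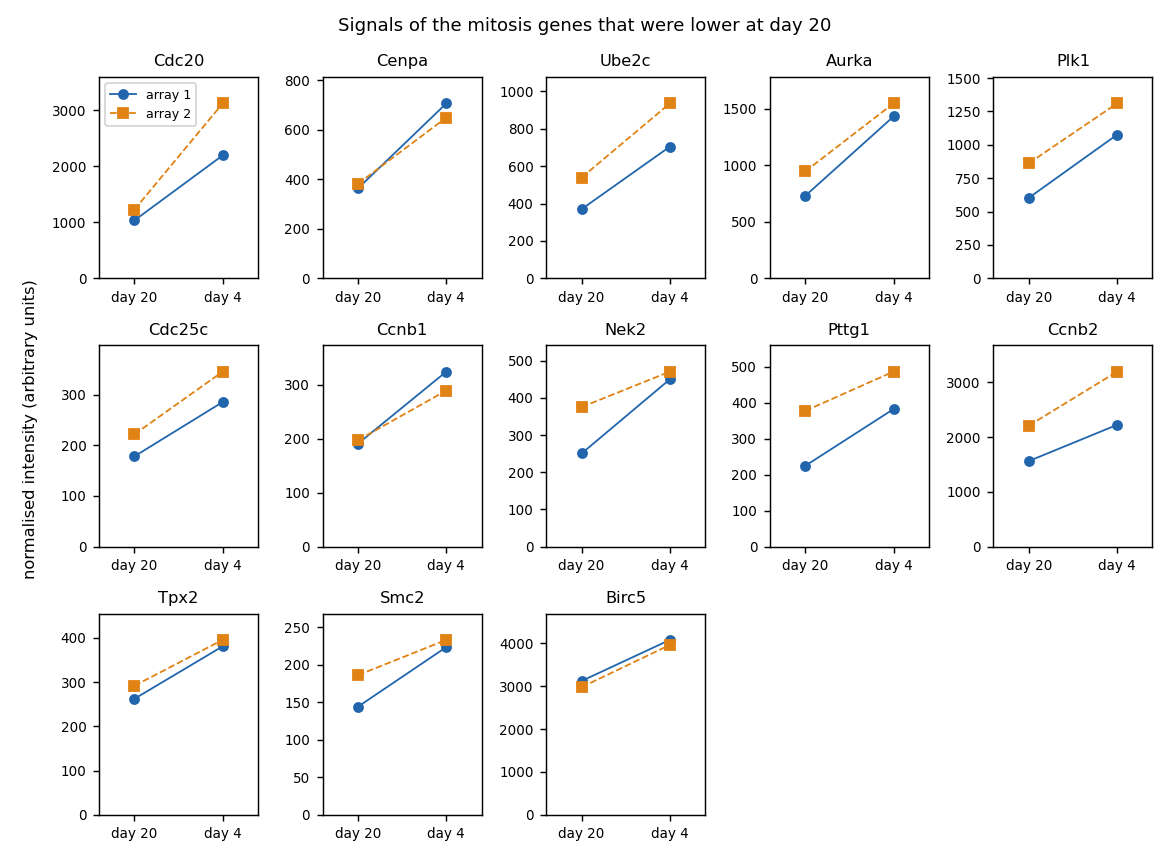
Normalised intensity (vertical axis, linear, from 0, with its own scale for each gene) of mitosis genes called lower at day 20, with day 20 to the left of day 4 and lines joining the 2 pools on 1 array. Each day 20 point lies below the day 4 point of its own array, as for Cdc20 with 1035 and 1229 at day 20 against 2198 and 3127 at day 4.

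None of the 4 tested spindle checkpoint genes passed the test, where 9.27% of all tested genes were lower. Of the 4, 1 gene, Mad2l1, had an unadjusted limma p below 0.05. Mad2l1, the checkpoint protein that binds Cdc20, had the ratio farthest from 0 of the 4, with intensities of 293 and 315 at day 20, against 461 and 335 at day 4. Its day 20 values lay below both day 4 values, but the ratio was -0.66 on array 1 and -0.09 on array 2 (mean -0.37 ± 0.40, adjusted p = 0.0865). Bub1b, the BubR1 subunit of the checkpoint complex, had ratios of -0.65 and 0.09. Bub3, its partner, had -0.30 and -0.04, and the checkpoint kinase Ttk had -0.15 and 0.01. All 4 were lower on array 1 than on array 2.

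Of the 3 tested centromere genes among the 41, 1 passed the test, where 9.27% of all tested genes were lower. Cenpa, the histone H3 variant that marks the centromere, had 363 and 382 at day 20, against 706 and 649 at day 4. The groups did not overlap, and the mean log2 ratio was -0.86 ± 0.14, a level 1.82-fold lower at day 20 (adjusted p = 1.15e-04). Cenpb, which binds satellite DNA, had ratios of 0.07 and 0.03, and Cenpc1, which links centromeric chromatin to the kinetochore, had -0.27 and 0.32. Cenpf, a kinetochore protein, had ratios of 0.34 and 0.15 with its marked spot kept (adjusted p = 0.209). Of the chromosomal passenger complex, which carries Aurora B to centromeres, Birc5 (survivin) had 3120 and 2976 at day 20, against 4079 and 3961 at day 4. The difference was small and alike on both arrays (-0.40 ± 0.02, adjusted p = 0.0231). Incenp, the scaffold of the complex, had 0.05 and -0.17.

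Among 6 tested genes of the spindle and of cytokinesis 1, Tpx2, passed the test, where 9.27% of all tested genes were lower. Tpx2, which activates Aurora A on spindle microtubules, had 262 and 292 at day 20, against 381 and 396 at day 4 (-0.49 ± 0.07, adjusted p = 0.00717). The kinesin Kif4 had ratios of -0.34 and 0.03, and Kif2c, a kinesin that takes microtubules apart, had -0.20 and 0.02. Genes of the central spindle lay near 0: Kif23 had 0.06 and 0.15, its partner Racgap1 had -0.04 and 0.26, and Prc1, which bundles microtubules, had 0.14 and -0.12. Second probes gave -0.04 and -0.15 for Kif23 (not well above background on array 2) and 0.16 and 0.06 for Kif4. Kif20a, a kinesin of cytokinesis, had -0.14 on both arrays with its marked spot kept (adjusted p = 0.614).

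Of 4 tested genes of condensin and the chromosome surface, 1 passed the test, where 9.27% of all tested genes were lower. Smc2, a core subunit of both condensins, had 144 and 186 at day 20, against 223 and 233 at day 4 (-0.48 ± 0.22, adjusted p = 0.0120), but its second probe gave -0.45 and 0.15. With the mean of both probes Smc2 did not pass the test. Its partner Smc4 had ratios of -0.24 and 0.12, and Ncaph, a condensin I subunit, had 0.08 and 0.19. Mki67, the Ki-67 protein that coats mitotic chromosomes and is used as a label of proliferating cells, had 2394 and 2047 at day 20, against 2377 and 1566 at day 4. These values overlap, and its ratios of 0.01 and 0.39 gave the highest mean of the 31 genes (0.20).

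The arrays differed in how far the mitosis genes were lower. For 24 of the 31 genes the ratio was lower on array 1 than on array 2, where 55.3% of all genes were, and the median difference between arrays was -0.22 for these genes and -0.03 for all genes. The ratio was below 0 for 25 genes on array 1 (49.6% of all genes) and for 19 on array 2 (51.8% of all). The pooled SD between arrays was 0.245 for the mitosis genes and 0.189 for all genes. By intensity, both day 20 values lay below both day 4 values for 16 of the 31 genes, against 15.5% of all genes, and above them for 1, against 13.9% of all. The 16 are the 13 called genes with Bub3, Cdk1 and Mad2l1, and the 1 is Ncaph.

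**Figure D3:**
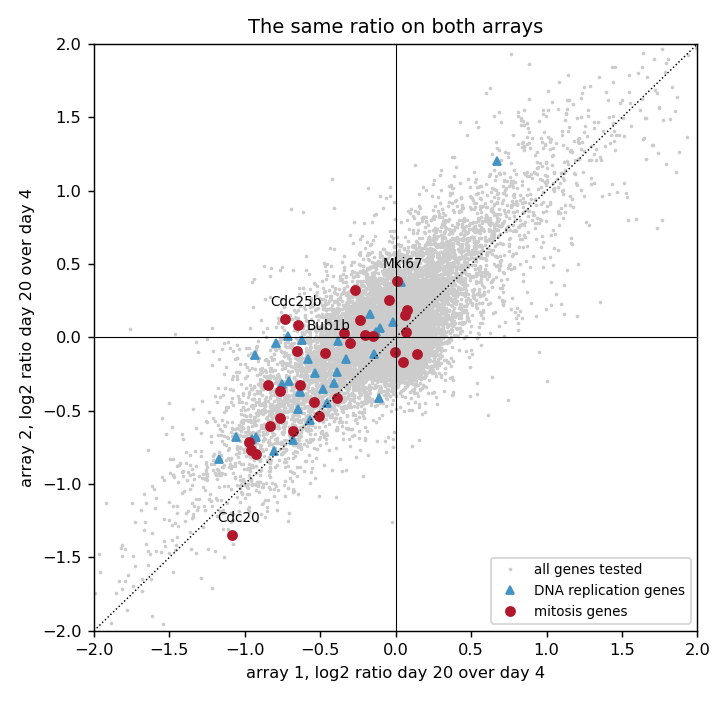
Log2 ratio of day 20 over day 4 on array 1 (horizontal) and array 2 (vertical) for all tested genes (grey), DNA replication genes (blue triangles) and mitosis genes (red), with equal ratios on the dotted line and 59 genes beyond the axes not drawn. Most of the red points, 24 of 31, lie above the dotted line, Cdc20 lies lowest, and Cdc25b and Bub1b lie below 0 on array 1 alone.

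Other genes of the same processes were measured through a list that holds none of the 41, in which probes were named by accession or symbol. Of 59 tested, 15 were lower at day 20 (25.4%) and 2 higher (3.39%), where 9.27% of all genes were lower and 7.83% higher. Their median mean ratio was -0.14, against -0.29 for the 31 mitosis genes and -0.01 for all genes. The counts in the smaller lists that follow stand beside the same shares of all genes. Of 17 kinetochore and checkpoint genes 4 were lower and 1 higher. Mad1l1, which recruits Mad2l1 to kinetochores, had a mean of -0.60 ± 0.13 and the histone kinase gene Haspin -0.50 ± 0.12. The centromere gene Cenph had -0.59 ± 0.72, mostly from array 1 (ratios of -1.10 and -0.08, adjusted p = 0.0399). The kinetochore gene Spc25 had 0.40 ± 0.30 (adjusted p = 0.0428). Of 9 further kinesin, spindle and cytokinesis genes 2 were lower: Kpna2, an importin that binds Tpx2, with -0.98 ± 0.38, and the gamma-tubulin gene Tubg1 with -0.63 ± 0.24. Of 22 further genes of entry, exit and the anaphase promoting complex 6 were lower and 1 higher. Those lower included Cks1b, a small partner of cyclin-dependent kinases, with -0.80 ± 0.16, Anapc1, a subunit of the complex, with -0.77 ± 0.07, and Cdca3 with -0.62 ± 0.17. Ube2s, which extends ubiquitin chains on substrates of the complex, was lower with -0.61 ± 0.65 (ratios of -1.07 and -0.15, adjusted p = 0.0240). Other subunits of the complex did not follow Anapc1. Anapc16 was the 1 higher (0.45 ± 0.06), and Anapc5 (-0.30 ± 0.32), Anapc7 (0.03 ± 0.22) and Anapc11 (-0.03 ± 0.19) did not pass the test. Of 11 further condensin, cohesin and mitotic chromosome genes 3 were lower. Lmnb1, of the nuclear lamina, had -0.77 ± 0.36, and Cdca5 (sororin), which protects cohesin, had -0.38 ± 0.09. Banf1, which bridges DNA as nuclei re-form, had -0.65 ± 0.58 (ratios of -1.06 and -0.24, adjusted p = 0.0115).

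Genes of DNA replication, which act earlier in the cell cycle, were measured as well. Of these, 17 of 33 were lower (51.5%) and 1 higher (3.03%), against 9.27% and 7.83% of all genes. The share lower was above that of the mitosis genes here but not under every setting: with median centring it was 8 of 33, against 9 of 31 mitosis genes, with an offset of 0 it was 10 of 33 against 10 of 31, and with the scanner software's ratios 3 of 33 against 3 of 31. Their medians were -0.57 on array 1 and -0.24 on array 2, and 31 of 33 had a lower ratio on array 1 than on array 2. Orc1, a subunit of the origin recognition complex, had ratios of -1.17 and -0.83, Orc6 a mean of -0.87 ± 0.27 and Rpa3, of the complex that binds single-stranded DNA, a mean of -0.82 ± 0.18. Rfc2, a subunit of the clamp loader, was higher with 0.94 ± 0.37. The difference between these lists and the mitosis genes was not tested.

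**Figure D4:**
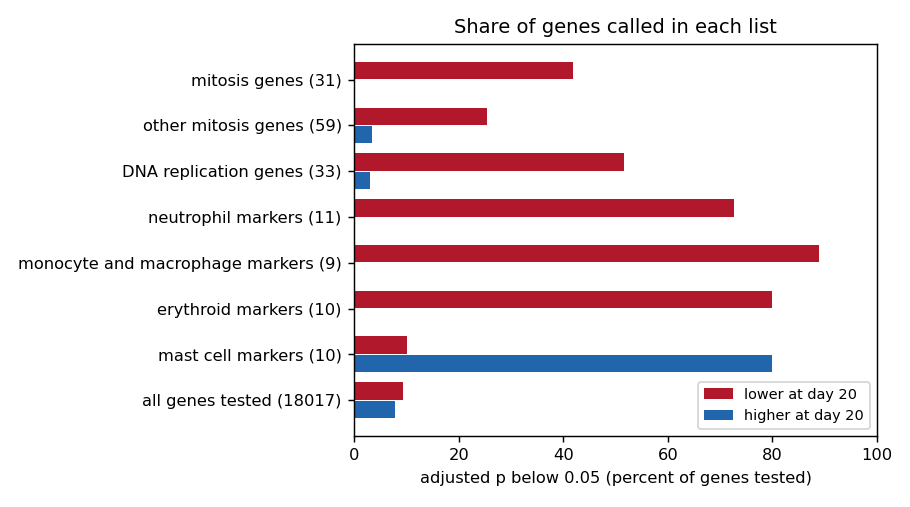
Percent of tested genes with an adjusted p below 0.05 (horizontal axis) that were lower (red) or higher (blue) at day 20, for the mitosis genes, other lists and all genes, with the number tested in brackets. For the mitosis genes 41.9% were lower and 0 higher, against 9.27% and 7.83% of all genes.

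Markers of mast cells and of other blood cells moved between the same pools, and their part in the mitosis result was not tested. Of 10 tested mast cell markers 8 were higher and 1 lower, where 7.83% of all tested genes were higher and 9.27% lower. Their summed intensity was 297308 and 299989 at day 20, against 62921 and 77706 at day 4. The proteases Cma1 and Tpsab1, the 2 with the largest ratios, were saturated at day 20 on both arrays and Mcpt1 on array 1, so these day 20 sums are lower bounds. Of 11 neutrophil markers 8 were lower, with sums of 9307 and 10835 at day 20, against 17383 and 17125 at day 4. Most of the day 20 sums came from Ctsg, which was not called (8272 and 9567 at day 20, against 8749 and 8310 at day 4), and without it the sums were 1034 and 1268 at day 20, against 8634 and 8815 at day 4. S100a9 (mean ratio -5.06 ± 0.11) and Mpo (-3.15 ± 0.15) led them and stayed well above background at day 20, while Camp was not well above background there. Of 9 monocyte and macrophage markers 8 were lower, with sums of 1385 and 1441 at day 20, against 6604 and 7280 at day 4, led by Ctss (-3.60 ± 0.08) and Lyz2 (-2.88 ± 0.53). Of 10 erythroid markers 8 were lower, with sums of 2372 and 2201 at day 20, against 3844 and 3665 at day 4. Of these, Klf1 had -1.32 ± 0.11 and Hemgn had -1.99 ± 0.08, with Hemgn well above background at day 20 on array 1 but not on array 2. The channels also differed: 93.1% and 90.5% of gene spots were well above background at day 20, against 96.2% and 80% at day 4. Before normalisation the median signal of negative control spots above local background was higher with Cy3. It was 50.6 at day 4 on array 1 and 68.0 at day 20 on array 2, against 11.5 in both Cy5 channels. The part of this dye difference in the gap between arrays was not tested.

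Which of the 13 calls stood depended on how ratios were computed. Cdc20, Cenpa and Ube2c passed the test under the main setting and under all 9 alternatives that recomputed it, but Cdc20 and Ube2c rest on probes identified by a description in words and drop out where only accessions and symbols count. With the scanner software's own ratios those 3 were the only mitosis genes called, while Aurka, Ccnb1, Cdc25c and Plk1 missed the threshold there with adjusted p between 0.0501 and 0.0733 and passed under the other 8. The remaining 6 calls were lost under 2 or 3 alternatives each, the scanner software's ratios among them. Birc5 was also lost with an offset of 0 (adjusted p = 0.346) and with an intensity trend in the prior (adjusted p = 0.103), and Ccnb2 with an offset of 0 (adjusted p = 0.138). Tpx2 was also lost with an offset of 0 (adjusted p = 0.0683) and with median centring (adjusted p = 0.0746). Median centring also ended the calls of Nek2 (adjusted p = 0.148), Pttg1 (adjusted p = 0.117) and Smc2 (adjusted p = 0.121). No mitosis gene was called higher under any of them.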

How the data were processed

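Two-colour array data of day 20 and day 4 cultures were used from 2 arrays with swapped dyes. Spots were measured with Agilent Feature Extraction, version 7.5 per the submitters' processing notes (array 2's own header has 7.5.1). Mean signals and local backgrounds were deposited as raw intensity values per spot and dye, and background medians of array 1 that a spreadsheet had turned into month names were read back (313 Cy3 and 324 Cy5 cells). The deposited log10 ratios are the scanner software's, Cy5 over Cy3, per the file headers, and the deposited series matrix equals them in 22393 of 22393 rows.

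Log2 ratios were computed with R 4.3.3, limma 3.58.1 and version 1.17.8 of data.table: normexp background correction with an offset of 50, loess within arrays, marked spots left out, array 2 turned for the dye swap, and the brightest probe per gene. Genes well above background in both day 20 or both day 4 channels were tested against 0 with lmFit and eBayes, two-sided, Benjamini-Hochberg adjusted over all of them. With 1 residual degree of freedom the prior (11.8 degrees of freedom) carries most of the variance. The fit was tested on simulated data: it recovered every change of 2-fold or more, but the share of false calls varied between simulations and exceeded the nominal threshold in most of them, in some by several times. An upper limit on false calls first set for this check was not met, and was replaced by recording their share, so adjusted p-values here are approximate and those near 0.05 the least firm. Intensities are single-channel values after loess and Aquantile scaling. Across genes the arrays' ratios correlated with Pearson's r = 0.775 and Spearman's rho = 0.473.

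The mitosis genes, the other lists and the tests were chosen with earlier results of these data known. Every mitosis gene with a probe is reported. Named from each related list are up to 4 called genes with the largest absolute mean log2 ratio, besides Cdc25a and further subunits of the anaphase promoting complex. From each marker list the 2 with the largest absolute mean are named, besides markers named for their signal. Of the 31 tested mitosis genes, 10 had a tested probe matched by a description in words, and 9 of the 34 genes with a probe had no other kind. Alternatives changed the offset, the background step, normalisation, marked spots, the filter, the prior, the choice of probe and the naming.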

Additional observations from a re-analysis of the deposited data

How the results depend on the processing

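The mitosis genes called lower numbered 13. Over the alternatives that tested them the number was 3 with the scanner software's ratios, 9 with median centring, 10 with an offset of 0, 8 of 21 when only genes named by accession or symbol were counted, and 12 to 14 otherwise. Calls over all 18017 genes fell as well, from 1670 lower and 1410 higher. The scanner software's ratios gave 626 lower and 607 higher, median centring 779 and 558, and an offset of 0 1320 and 1235. Other mitosis genes called lower numbered 3 with the scanner software's ratios and 6 with median centring, against 15. DNA replication genes called lower numbered 3 with the scanner software's ratios, 8 with median centring and 10 with an offset of 0, against 17. The causes were not tested. The median log2 ratio of the mitosis genes was -0.11 without array 1 and -0.47 without array 2, and 1 array alone allows no test. No called ratio of a mitosis gene changed sign under any alternative. Each array gives 1 ratio of day 20 over day 4, so the test against 0 was already paired by array. The naming alternative was chosen after the files were seen. Depth is not known for arrays, and 2 arrays with 3 samples to a pool limit the precision.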
